A study of Mus musculus with 7 samples.

Results

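Neuronal cytoskeleton genes were examined for H3K27ac before and after induction of NeuroD1 in mouse embryonic stem cells. The set comprised 10 genes (Tubb3, Dcx, Map2, Mapt, Stmn2, Stmn3, Gap43, Nefl, Nefm and Ina), and its peaks were all merged H3K27ac peaks that overlapped a gene body extended by 10 kb on either side. These were 27 of the 66841 merged peaks. They lay at 9 of the 10 genes, since no merged peak overlapped the extended body of Dcx. The rule itself uses no H3K27ac value, although the genes were proposed with results of these data known.

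The neuronal cytoskeleton is built from microtubules, neurofilaments and actin. Microtubules are polymers of α- and β-tubulin that give axons and dendrites their shape and serve as tracks for transport. Microtubule-associated proteins bind along this lattice and stabilise it, whereas stathmins bind free tubulin dimers and promote disassembly. Neurofilaments are intermediate filaments that fill the axon and support its calibre, and growth cone proteins link membrane signals to the actin cytoskeleton at the axon tip. H3K27ac, the acetylation of lysine 27 of histone H3, marks active promoters and enhancers and is measured here as sequencing reads of immunoprecipitated chromatin. NeuroD1 is a proneural basic helix-loop-helix factor that binds E-boxes.

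The cells were A2Lox embryonic stem cells that carry the murine NeuroD1 coding sequence with an HA-tag under a doxycycline-inducible promoter. They had been kept off feeders before the experiments. H3K27ac was profiled in uninduced cells (0 h) and in cells given 500 ng per ml of doxycycline for 12 h or 48 h, with 2 libraries (R1 and R2) per time point. All groups were of this one transgenic line, and no group received doxycycline without the transgene. Nothing in the labels states that R1 and R2 came from separate cultures, so p-values measure only the spread between these libraries. In such bulk chromatin, fewer cells with the mark and less of the mark per cell cannot be told apart.

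Reads in merged peaks ranged from 6283103 to 8112895 per library, and counts below are scaled to the mean of these totals. The libraries R1 and R2 differed by more than sampling noise at every time point, with a chi-square per degree of freedom of 1.79 at 0 h, 1.42 at 12 h and 5.54 at 48 h. At the 4 peaks of Neurod1, where reads of the transgene and the endogenous gene cannot be told apart, summed scaled counts were 183.7 and 158.1 at 0 h, 651.9 and 584.1 after 12 h, and 479.6 and 529.7 after 48 h. The summed counts of 7 pluripotency markers, all with peaks, were 21927 to 22093 at 0 h, 24369 to 24575 at 12 h and 15199 to 19072 at 48 h. Singly, only Esrrb passed at 48 h relative to 0 h (log2 fold change -0.53, adjusted p = 0.026, edgeR). Pou5f1 was higher at 12 h (0.30, adjusted p = 0.032), and 5 of the 7 were lower at 48 h than at 12 h. Of 6 feeder fibroblast markers, Dcn, Postn and Thy1 had no peak, and the other 3 summed to 365 to 370, 385 to 414 and 334 to 391. Within that sum Col1a2 was higher at 12 h (log2 fold change 1.12, adjusted p = 0.017, edgeR) and at 48 h (1.38, adjusted p = 0.011), Col3a1 was higher at 12 h (1.62, adjusted p = 0.0079), and Col1a1 was lower at 12 h (-0.44, adjusted p = 0.038). The part of these cells in the results was not tested. Of 6 astrocyte and oligodendrocyte markers, Aqp4, Olig2 and S100b had no peak, and the other 3 summed to 952 to 1008, 1208 to 1362 and 1101 to 1304. Slc1a3 held most of this sum and was higher at 12 h (log2 fold change 0.59, adjusted p = 0.014, edgeR), while Gfap and Mbp passed in no comparison. Of 5 further neuronal genes Snap25 had no peak, and the other 4 summed to 1472 to 1573, 1941 to 1976 and 1866 to 1906. Elavl4 held most of this sum, and the genes differed in direction. At 12 h Elavl4 was higher (log2 fold change 0.54, adjusted p = 0.01, edgeR) and Elavl3 was lower (-1.06, adjusted p = 0.0065). Only Rbfox3 passed at 48 h relative to 0 h (1.08, adjusted p = 0.022). From 12 h to 48 h Rbfox3 rose (0.90, adjusted p = 0.017) and Syt1 fell (-0.94, adjusted p = 0.032).

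At 48 h relative to 0 h, H3K27ac rose at peaks of Map2, Tubb3 and Gap43 and at no peak of the other genes, whereas at 12 h it rose at peaks of Map2 and Mapt. A gain or a loss denotes an adjusted p below 0.05 in edgeR's quasi-likelihood test over all merged peaks, with Benjamini-Hochberg adjustment. At 12 h relative to 0 h, H3K27ac was gained at 4 of the 27 peaks and lost at 4, against 9.93% and 6.03% of all merged peaks. At 48 h relative to 0 h, 8 gained and 1 lost, against 8.56% and 5.45%. Between 12 h and 48 h, 10 gained and 2 lost, against 10.7% and 8.43%. The median log2 fold change of the 27 peaks was -0.07 at 12 h and 0.27 at 48 h relative to 0 h, and 0.57 from 12 h to 48 h. Over all merged peaks these medians were -0.08, -0.04 and -0.03. All comparisons share libraries, so they are not independent of each other.

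**Figure D1:**
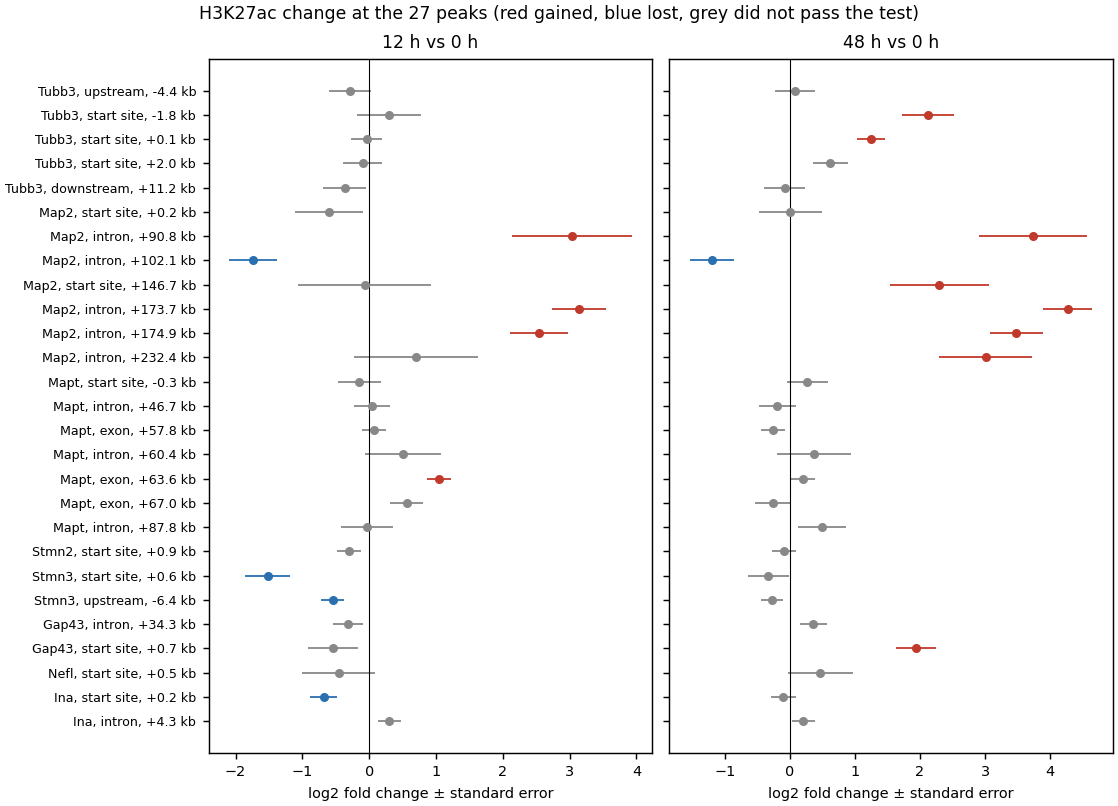
Log2 fold change with its standard error (x axis) of the 27 peaks at the neuronal cytoskeleton genes, at 12 h (left) and 48 h (right) relative to 0 h. Rows name the gene, the place of the peak and the distance of its centre from the gene start, and the shared Nefl and Nefm peak is drawn once. At 48 h the 8 gains, in red, lie at Map2, Tubb3 and Gap43, and the 1 loss, in blue, lies at Map2.

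Of the 27 peaks, 11 reached within 2 kb of a transcription start site (TSS) of their own gene, and 16 did not. At 12 h H3K27ac was gained at none of these 11 promoter peaks and lost at 2, where 2.40% of all promoter peaks gained and 17.0% lost it. At 48 h relative to 0 h, 4 of the 11 gained and none lost, where 4.87% of all promoter peaks gained and 2.88% lost. Of the 16 other peaks, 4 gained and 2 lost at 12 h, where 12.4% and 2.45% of all merged peaks away from promoters did. At 48 h 4 of the 16 gained and 1 lost, against 9.76% and 6.29%. These 16 include peaks at the promoters of the neighbours Mc1r and Rtel1, and the Rtel1 peak is among the 2 lost at 12 h. The shares set beside the 16 leave out peaks at the promoter of any gene, so they do not cover these neighbours' peaks. Among the 11 promoter peaks, the fold changes at 12 h had a median of -0.31 on the log2 scale. Several of the 11 lie at Tubb3 and Map2, and a median over all promoter peaks was not computed. Counts summed over the peaks of each gene, a different measure, had a median of -0.29 over all genes with a peak.

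Tubb3 encodes the neuronal β-III tubulin detected by the Tuj1 antibody. The gene lies at chr8:123411424-123422015 on the plus strand (GRCm38/mm10, GENCODE M21), with 5 peaks. The neighbouring loci Mc1r, Tcf25, Def8 and the overlapping Gm20388 share these peaks, so the counts cannot be given to Tubb3 alone. The bases directly before its start (chr8:123411324-123411423, plus strand) are shown because they lie inside the promoter peak that gained H3K27ac at 48 h, and they contain none of the E-boxes searched.
Tubb3 upstream: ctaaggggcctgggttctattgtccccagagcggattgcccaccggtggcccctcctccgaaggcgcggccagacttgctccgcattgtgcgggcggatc

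The promoter peak of Tubb3, at chr8:123410439-123412601, covers the first exon and its coding start. Scaled counts were 106.7 and 109.3 at 0 h, 102.9 and 107.6 after 12 h, and 302.0 and 214.1 after 48 h. Both 48 h libraries lay above all others, while the 0 h and 12 h libraries overlapped. The log2 fold change was -0.04 ± 0.23 (SE) after 12 h (adjusted p = 0.93, edgeR), 1.25 ± 0.22 at 48 h (adjusted p = 0.00035), and 1.29 ± 0.22 from 12 h to 48 h (adjusted p = 0.00045). These calls at 48 h were kept under every alternative tried.

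The largest gain at Tubb3 was at a weaker peak 1777 bp upstream of the gene start, at chr8:123409191-123410104. Its scaled counts were 11.3 and 12.7 at 0 h, 15.0 and 14.7 after 12 h, and 73.3 and 34.4 after 48 h, so that R1 of 48 h was well above R2 and both were above the earlier libraries. Relative to 0 h, the log2 fold change was 0.30 ± 0.48 after 12 h (adjusted p = 0.68, edgeR) and 2.13 ± 0.40 at 48 h (adjusted p = 0.00067). Between 12 h and 48 h it was 1.82 ± 0.38 (adjusted p = 0.0024), a call lost without 12 h R2 (adjusted p = 0.062). The third peak within 2 kb of a TSS, which overlaps no exon, had scaled counts of 47.2 and 45.6, 49.3 and 37.7, and 76.6 and 67.1, and its log2 fold change at 48 h was 0.62 ± 0.27 (adjusted p = 0.14, edgeR). With an offset for GC content that peak passed at 48 h relative to 0 h, with 0.65 (adjusted p = 0.048), and relative to 12 h, with 0.63 (adjusted p = 0.049). The peak upstream at the Mc1r promoter and the peak downstream of the gene did not pass in any comparison, with log2 fold changes at 48 h of 0.08 and -0.08.

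Map2 encodes a microtubule-associated protein of neuronal dendrites. The gene spans chr1:66175273-66442583 on the plus strand and has 7 peaks, and no other protein-coding gene shares them. The sequences below, on the plus strand of GRCm38/mm10, come from the pair of neighbouring intronic peaks with the strongest signal after induction and from the intronic peak that lost H3K27ac. Capitals mark E-boxes of the forms CAGATG (on either strand, thus also CATCTG) and CAGCTG, which reads the same on both strands, and each window was placed where these were densest. The windows are chr1:66349493-66349612, chr1:66350011-66350130 and chr1:66277322-66277441.
Map2 intron, gained, first peak: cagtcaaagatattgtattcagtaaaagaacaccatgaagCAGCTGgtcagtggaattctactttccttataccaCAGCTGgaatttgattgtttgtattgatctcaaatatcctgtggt
Map2 intron, gained, second peak: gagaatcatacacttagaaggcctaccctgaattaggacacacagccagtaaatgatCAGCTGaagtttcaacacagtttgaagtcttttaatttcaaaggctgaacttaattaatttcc
Map2 intron, lost: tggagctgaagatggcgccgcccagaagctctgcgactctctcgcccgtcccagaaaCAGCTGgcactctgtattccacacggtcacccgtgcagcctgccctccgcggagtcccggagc

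The first of the gained intronic peaks, at chr1:66348251-66349659, lies 173682 bp from the gene start. Its scaled counts were 8.2 and 4.2 at 0 h, 45.0 and 66.2 after 12 h, and 113.2 and 131.6 after 48 h. Counts of the 3 time points did not overlap and rose in order of induction time. The log2 fold change was 3.14 ± 0.41 after 12 h (adjusted p = 8.9e-06, edgeR) and 4.27 ± 0.38 at 48 h (adjusted p = 3.6e-08), the largest of the 27 peaks in both comparisons. From 12 h to 48 h it was 1.13 ± 0.27 (adjusted p = 0.0055), a call lost without 12 h R1 (adjusted p = 0.15).

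The second, at chr1:66349697-66350731, had scaled counts of 12.3 and 4.2 at 0 h, 40.7 and 57.0 after 12 h, and 66.6 and 119.5 after 48 h. Here too the time points did not overlap. Relative to 0 h, the log2 fold change was 2.54 ± 0.44 after 12 h (adjusted p = 0.00032, edgeR; 0.056 without 0 h R2) and 3.48 ± 0.41 at 48 h (adjusted p = 2.2e-06). The further gain from 12 h to 48 h, 0.93 ± 0.31 (adjusted p = 0.037), was lost in 7 of 13 alternatives, among them DESeq2 (adjusted p = 0.098) and the fits without any one of 0 h R1, 0 h R2, 12 h R1, 12 h R2 and 48 h R2.

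The intronic peak at chr1:66277098-66277652, 102102 bp from the gene start, changed in the opposite direction. Its scaled counts were 42.1 and 44.6 at 0 h, 11.8 and 13.8 after 12 h, and 15.5 and 21.5 after 48 h, and both induced time points lay below 0 h. The log2 fold change was -1.74 ± 0.36 after 12 h (adjusted p = 0.0019, edgeR; 0.056 without 0 h R2). At 48 h it was -1.20 ± 0.34 (adjusted p = 0.018), a call lost with DESeq2 and without either 0 h library, with adjusted p up to 0.19. This peak had the highest GC content of the 27, at 66.5%, and the second gained peak had the lowest, at 37.7%. With the GC offset the loss at 12 h was -1.31 (adjusted p = 0.0061).

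The other 3 gains at Map2 rested on few reads. An intronic peak 90778 bp from the gene start had 1 and 1 reads at 0 h, 9 and 10 after 12 h, and 20 and 11 after 48 h. Its ratio to 0 h in library-scaled reads was 9.02 at 12 h (95% exact counting interval 2.17 to 79.8) and 14.4 at 48 h (3.66 to 124). The adjusted p values were 0.024 and 0.0032 (edgeR). The call at 12 h was lost without any one 0 h or 12 h library, and that at 48 h without 0 h R2. DESeq2 gave no adjusted p for this peak at 12 h, so it did not call it there.

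At the start of the shorter Map2 transcripts, 146747 bp into the gene, reads were 4 and 1 at 0 h, 3 and 2 after 12 h, and 16 and 11 after 48 h. The ratio at 48 h was 5.02 relative to 0 h (1.9 to 16.7, adjusted p = 0.043, edgeR) and 5.29 relative to 12 h (2.01 to 17.6, adjusted p = 0.031). The first of these calls was lost in 6 of 13 alternatives, which were DESeq2 and the fits without any single library other than 48 h R2, with adjusted p up to 0.34. The second was lost without 12 h R1, 12 h R2 or 48 h R1, and DESeq2 gave no adjusted p for it. The intronic peak 232442 bp from the start had 3 and 1, 4 and 3, and 19 and 17 reads, a ratio at 48 h of 8.36 relative to 0 h (3.0 to 32.3, adjusted p = 0.0054, edgeR), lost without 0 h R2 (adjusted p = 0.12). At these 3 peaks both 48 h libraries were above both 0 h libraries. Counting intervals cover counting error only.

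The peak at the annotated 5′ start of Map2 did not follow the intronic peaks. Its scaled counts averaged 16.7 ± 0.4 before induction (SD, n = 2), 11.3 ± 6.82 after 12 h and 17.4 ± 9.98 after 48 h, with overlapping libraries. None of its comparisons passed the test, with adjusted p of 0.44, 0.99 and 0.42 in edgeR for 12 h, 48 h and 48 h relative to 12 h.

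**Figure D2:**
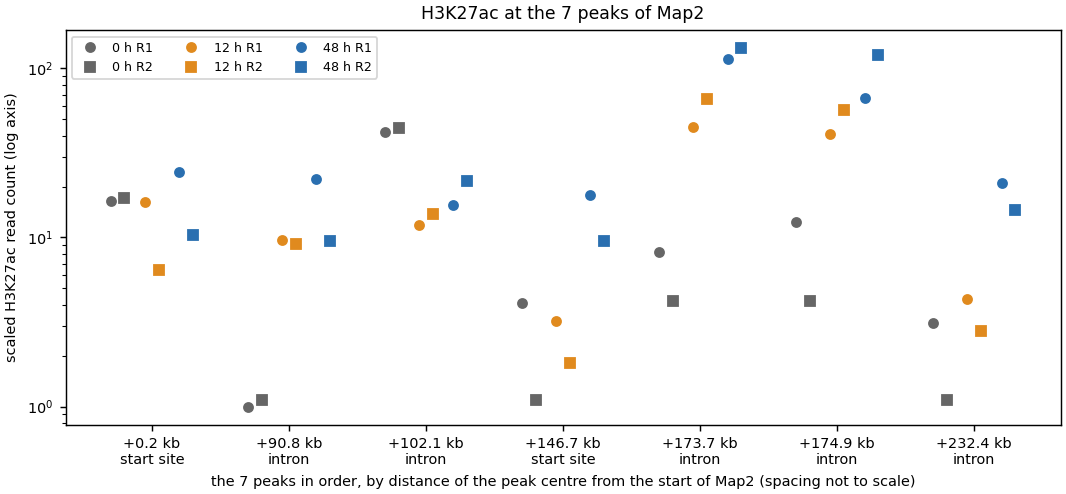
Scaled H3K27ac read count (log axis) of each library at the 7 peaks of Map2, ordered along the gene by distance from its start. The fifth and the sixth peak from the left rise from between 4.2 and 12.3 at 0 h to between 66.6 and 131.6 at 48 h, while the third falls from 42.1 and 44.6 to 15.5 and 21.5.

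Mapt encodes tau, the microtubule-associated protein enriched in axons. The gene lies at chr11:104231390-104332090 on the plus strand and has 7 peaks. Its H3K27ac was higher at 12 h than at either other time point, at 1 broad peak inside the gene. A window of that peak (chr11:104294682-104294801, plus strand) is shown with its E-box in capitals.
Mapt gene body: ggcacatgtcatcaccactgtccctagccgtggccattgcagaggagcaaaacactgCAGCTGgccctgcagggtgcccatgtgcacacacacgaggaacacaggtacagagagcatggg

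This peak, at chr11:104292473-104297574, overlaps coding exons. Scaled counts were 237.1 and 234.6 at 0 h, 481.4 and 493.1 after 12 h, and 233.2 and 307.8 after 48 h. The 12 h libraries lay above all others, and the 48 h libraries spanned the 0 h values. The fold change on the log2 scale was 1.05 ± 0.18 after 12 h (adjusted p = 0.00036, edgeR), 0.20 ± 0.19 at 48 h (adjusted p = 0.53), and -0.84 ± 0.18 from 12 h to 48 h (adjusted p = 0.0029, up to 0.083 without either 12 h library). A neighbouring exonic peak, at chr11:104297630-104299225, had scaled counts of 70.8 and 57.3, 100.8 and 88.3, and 54.4 and 52.5. It fell from 12 h to 48 h by 0.82 on the log2 scale (SE 0.26, adjusted p = 0.027, edgeR), but the call was lost in 6 of 13 alternatives, which were DESeq2 (adjusted p = 0.072), the 4 compared libraries alone, and the fits without any one 0 h or 12 h library. Its log2 fold change at 12 h, 0.56, did not pass (adjusted p = 0.13) except with the GC offset (0.87, adjusted p = 0.0037), with that offset and the replicate block, with the 4 compared libraries alone, or without either 48 h library.

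The strongest Mapt peak, at chr11:104287153-104291302, had scaled counts of 440.2 and 433.0 at 0 h, 458.9 and 457.2 after 12 h, and 307.5 and 419.6 after 48 h, with no call in any comparison (adjusted p of 0.81, 0.37 and 0.19 in edgeR). Without 48 h R2 it lost H3K27ac at 48 h (log2 fold change -0.51, adjusted p = 0.0048), and with the GC offset it did so from 12 h to 48 h (-0.42, adjusted p = 0.026). The Mapt promoter peak had scaled counts of 30.8 and 35.0, 27.9 and 31.3, and 45.5 and 34.4, which overlapped between 0 h and 48 h (adjusted p = 0.63, edgeR). The other 3 peaks of the gene did not pass in any comparison, except that the intronic peak 87810 bp from the start gained without 48 h R2, at 48 h relative to 0 h (adjusted p = 0.028) and relative to 12 h (adjusted p = 0.013).

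Dcx encodes doublecortin, which stabilises microtubules in migrating neurons. No merged peak overlapped chrX:143855842-143933311 (minus strand) or the 10 kb around it, so the gene has no count in any library.

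Stmn2 and Stmn3 encode neuronal stathmins. The 1 peak of Stmn2, at chr3:8508503-8511969, covers its start. Its scaled counts were 327.4 and 285.5 at 0 h, 237.0 and 258.5 after 12 h, and 304.2 and 272.6 after 48 h. The promoter was thus already marked before induction, with overlapping 0 h and 48 h libraries and log2 fold changes of -0.31 after 12 h (adjusted p = 0.25, edgeR) and -0.09 at 48 h (adjusted p = 0.80).

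The Stmn3 promoter peak, at chr2:181313231-181314579, had scaled counts of 85.2 and 95.5 at 0 h, 35.4 and 27.6 after 12 h, and 103.3 and 43.0 after 48 h. Both 12 h libraries were the lowest, and the 48 h libraries fell on either side of 0 h. The log2 fold change was -1.52 ± 0.34 after 12 h (adjusted p = 0.0033, edgeR), with adjusted p up to 0.097 without 0 h R2 or 12 h R2. Between 12 h and 48 h it was 1.19 ± 0.34 (adjusted p = 0.018), lost without 12 h R1, 12 h R2 or 48 h R1 (adjusted p up to 0.37). At 48 h relative to 0 h it was -0.33 ± 0.31 (adjusted p = 0.53), but -1.07 (adjusted p = 0.0016) without 48 h R1.

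The second peak counted to Stmn3, at chr2:181318875-181323002, covers the promoter of Rtel1, a DNA helicase gene, and can equally belong to it. Scaled counts were 437.2 and 411.8, 298.1 and 281.5, and 339.7 and 361.1, and no time points overlapped. It fell by 0.55 on the log2 scale at 12 h (SE 0.17, adjusted p = 0.031, edgeR). That call was lost in 6 of 13 alternatives, which were TMM factors, DESeq2 (adjusted p = 0.087) and the fits without any one 0 h or 12 h library. At 48 h it did not pass (-0.28, adjusted p = 0.32).

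Gap43 encodes a growth-associated protein of axonal growth cones. The gene lies at chr16:42248442-42340651 on the minus strand and has 2 peaks. Shown on the minus strand are the bases directly before its start (chr16:42340652-42340751) and the window around the E-box inside its promoter peak (chr16:42339715-42339834), since this promoter had the clearest gain among the 10 genes alongside that of Tubb3.
Gap43 upstream: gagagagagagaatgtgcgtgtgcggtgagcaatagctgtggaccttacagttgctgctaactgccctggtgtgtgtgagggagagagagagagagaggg
Gap43 promoter peak: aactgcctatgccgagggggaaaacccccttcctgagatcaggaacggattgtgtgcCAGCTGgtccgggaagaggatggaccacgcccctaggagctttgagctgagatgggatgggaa

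The Gap43 promoter peak, at chr16:42339074-42340912, had scaled counts of 51.3 and 37.1 at 0 h, 34.3 and 26.7 after 12 h, and 235.4 and 109.2 after 48 h. Both 48 h libraries lay above all others, with R1 well above R2. The fold change on the log2 scale was -0.54 ± 0.37 after 12 h (adjusted p = 0.31, edgeR), 1.94 ± 0.31 at 48 h (adjusted p = 0.00012), and 2.49 ± 0.33 from 12 h to 48 h (adjusted p = 3.8e-05). These calls at 48 h were kept under every alternative tried. R1 was the higher 48 h library at 6 of the 8 peaks gained at 48 h, and R2 was higher at the pair of neighbouring Map2 intronic peaks. Among the 7 pluripotency markers R1 was the lower 48 h library for 5, and the higher for Sox2 and Klf4. The part of this difference between libraries in the gains was not tested.

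The intronic Gap43 peak, at chr16:42305331-42307297, was stronger before induction. Scaled counts were 164.2 and 128.4 at 0 h, 119.0 and 115.0 after 12 h, and 177.6 and 198.6 after 48 h. The 48 h libraries were the highest, yet at 48 h relative to 0 h the log2 fold change of 0.36 did not pass (adjusted p = 0.29, edgeR). From 12 h to 48 h it was 0.69 ± 0.22 (adjusted p = 0.028), lost with the 4 compared libraries alone and without any one 0 h or 12 h library (adjusted p up to 0.24).

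**Figure D3:**
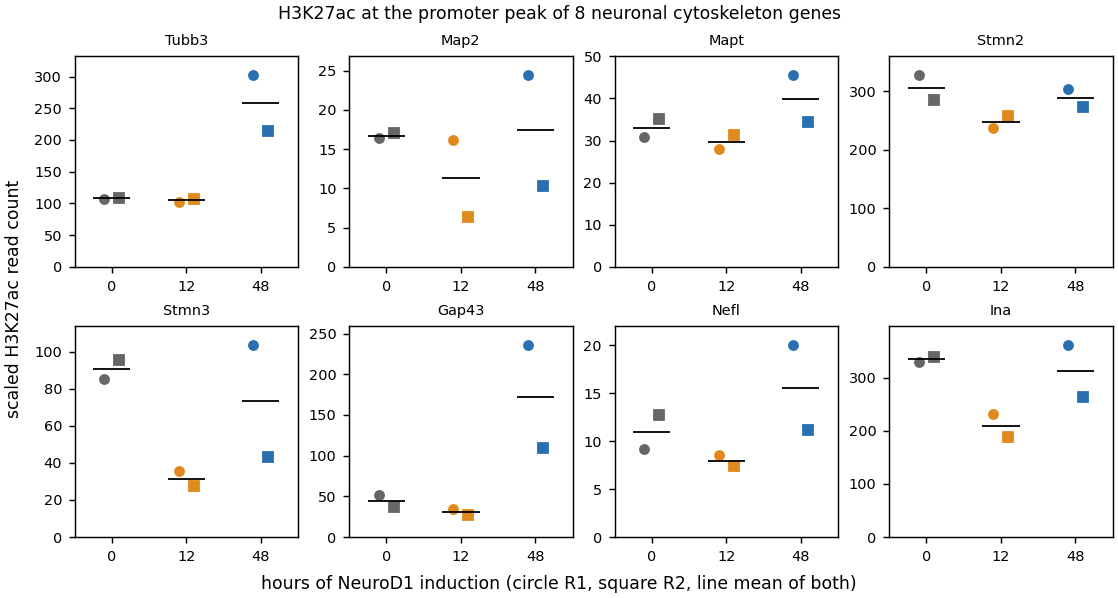
Scaled H3K27ac read count (y axis, from 0) of each library at the strongest promoter peak of 8 genes, by hours of induction, with the mean of R1 and R2 as a line. At Tubb3 and Gap43 both 48 h libraries lie above all others, whereas at Stmn2, Stmn3 and Ina the 48 h libraries overlap or straddle those of 0 h. At all 8 genes the mean at 12 h is the lowest, at Tubb3 only slightly. Of all promoter peaks, 17.0% lost and 2.40% gained H3K27ac at 12 h. The order depends on the scaling. With the GC offset the log2 fold change at 12 h was 0.22 at Tubb3 and 0.21 at Mapt, and negative at the others. Map2 and Nefl have scaled counts of under 25 in every library.

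Nefl, Nefm and Ina encode the neurofilament light chain, the neurofilament medium chain and α-internexin. A single weak peak, at chr14:68084208-68084525 in the first coding exon of Nefl, was counted for both Nefl and Nefm. It reaches Nefm only through a long transcript of that gene that ends over Nefl, and no peak lay at the start of Nefm. Reads were 9 and 12 at 0 h, 8 and 8 after 12 h, and 18 and 13 after 48 h. As scaled counts, 48 h R2 had 11.2 and 0 h R2 had 12.7, so 0 h and 48 h overlapped, and no comparison passed the test, with log2 fold changes of -0.46 ± 0.55 after 12 h (adjusted p = 0.59, edgeR) and 0.47 at 48 h (adjusted p = 0.59).

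Ina lies at chr19:47014698-47025327 on the plus strand and has 2 strong peaks, which also fall in the locus of its neighbour Nt5c2. The promoter peak covers a promoter of Nt5c2, a nucleotidase gene, as well and can equally belong to it. This peak, at chr19:47013808-47016017, had scaled counts of 330.4 and 338.6 at 0 h, 231.6 and 187.7 after 12 h, and 360.8 and 264.0 after 48 h. The 12 h libraries were the lowest and the 48 h libraries lay on either side of 0 h. The log2 fold change was -0.68 ± 0.20 after 12 h (adjusted p = 0.021, edgeR), but that call was lost in 7 of 13 alternatives, which were DESeq2 (adjusted p = 0.075), the GC offset with and without the replicate block (-0.27, adjusted p = 0.26 without it), and the fits without any one 0 h or 12 h library. Between 12 h and 48 h it was 0.57 ± 0.20 (adjusted p = 0.042), a call lost in 9 of 13 alternatives, among them the fits without any one library except 48 h R2, with adjusted p up to 0.40. The intronic Ina peak, at chr19:47017271-47020758, had scaled counts of 425.9 and 350.3, 462.1 and 491.2, and 411.9 and 485.8, and did not pass in any comparison (adjusted p of 0.24, 0.47 and 0.76 in edgeR). Its 12 h value passed with the 4 compared libraries alone or without either 48 h library (adjusted p down to 0.03).

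Summed over the peaks of each locus, H3K27ac at 48 h was higher than at 0 h for 3 genes (Tubb3, Map2 and Gap43) and lower for none, where 6.45% of the 16175 genes with a peak were higher and 5.35% lower. For the count of none lower, DESeq2 also gave 0 and the GC offset gave 1, Stmn3. At 12 h relative to 0 h, Map2 and Mapt were higher and Stmn3 was lower, where 7.13% of all genes were higher and 30.2% lower. Most of the Stmn3 sum lies at the Rtel1 promoter and can equally belong to Rtel1. Between 12 h and 48 h, Tubb3, Map2, Stmn3 and Gap43 were higher and Mapt was lower, where 38.2% and 7.73% were. These shares of all genes depended on the scaling. With library totals the median log2 fold change of all gene sums was -0.29 at 12 h, 0.03 at 48 h and 0.32 from 12 h to 48 h, and with TMM factors it was -0.02, 0.01 and 0.03. The calls at 12 h were 1153 genes higher and 4884 lower with library totals, and 1887 and 684 with TMM factors. For 48 h relative to 12 h they were 6184 and 1251, against 1796 and 2485. The median of the 9 genes was -0.31 at 12 h, 0.47 at 48 h and 0.93 from 12 h to 48 h. Nefl and Nefm entered these medians with the same single weak peak. The medians of 0.47 and 0.93 are the values of that peak, which passed in neither comparison.

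For Map2, summed scaled counts were 87.2 and 73.2 at 0 h, 130.8 and 157.3 after 12 h, and 280.9 and 316.4 after 48 h, with log2 fold changes of 0.85 ± 0.20 after 12 h (adjusted p = 0.013, edgeR) and 1.90 ± 0.19 at 48 h (adjusted p = 0.0002). The time points did not overlap, although the call at 12 h was lost without any one 0 h or 12 h library (adjusted p up to 0.14). For Tubb3 the sums were 239.1 and 250.5, 231.6 and 220.8, and 522.9 and 400.7, a log2 fold change at 48 h of 0.91 ± 0.16 (adjusted p = 0.0044, up to 0.092 without either 0 h library).

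For Gap43 the sums were 215.5 and 165.6, 153.3 and 141.7, and 413.0 and 307.8, a log2 fold change at 48 h of 0.91 ± 0.19 (adjusted p = 0.012, edgeR; up to 0.22 without either 0 h library). Mapt had sums of 868.2 and 844.9, 1166.6 and 1155.4, and 753.9 and 890.8, so that only 12 h stood apart. Its log2 fold change was 0.44 ± 0.11 after 12 h (adjusted p = 0.014, edgeR; up to 0.13 without any one 0 h or 12 h library), -0.06 ± 0.11 at 48 h (adjusted p = 0.81) and -0.50 ± 0.11 from 12 h to 48 h (adjusted p = 0.0071; up to 0.082 without either 12 h library).

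Most of the Stmn3 sum came from the peak at the Rtel1 promoter, which had 437.2 and 411.8, 298.1 and 281.5, and 339.7 and 361.1. Stmn3 as a whole had sums of 522.3 and 507.3, 333.5 and 309.1, and 443.0 and 404.1, with both 12 h libraries lowest. Its log2 fold change was -0.68 ± 0.13 after 12 h (adjusted p = 0.0065, edgeR), lost with DESeq2 (-0.40, adjusted p = 0.098) and without any one 0 h or 12 h library. From 12 h to 48 h it was 0.40 ± 0.13 (adjusted p = 0.027), lost in 9 of 13 alternatives, among them TMM factors, DESeq2 (0.09, adjusted p = 0.73) and the fits without any one 0 h or 12 h library. The rise from 12 h to 48 h also passed for Tubb3 (1.03 ± 0.16, adjusted p = 0.0036), Map2 (1.05 ± 0.18, adjusted p = 0.0048) and Gap43 (1.29 ± 0.20, adjusted p = 0.0033), each lost without either 12 h library (adjusted p up to 0.07). The sums of Ina, with 756.3 and 688.8, 693.7 and 678.9, and 772.8 and 749.8, did not pass in any comparison. At 12 h the sums of Gap43 (-0.37) and Stmn2 (-0.31) passed with the 4 compared libraries alone or without either 48 h library. With the 4 compared libraries alone, 1940 of the 16175 genes were higher at 12 h and 8253 lower, with a median of -0.29. With DESeq2 the values were -0.09 for Gap43 and -0.02 for Stmn2, and neither passed. At 48 h the sum of Stmn3 (-0.28) passed with the GC offset and without 48 h R1, with adjusted p down to 0.02.

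**Figure D4:**
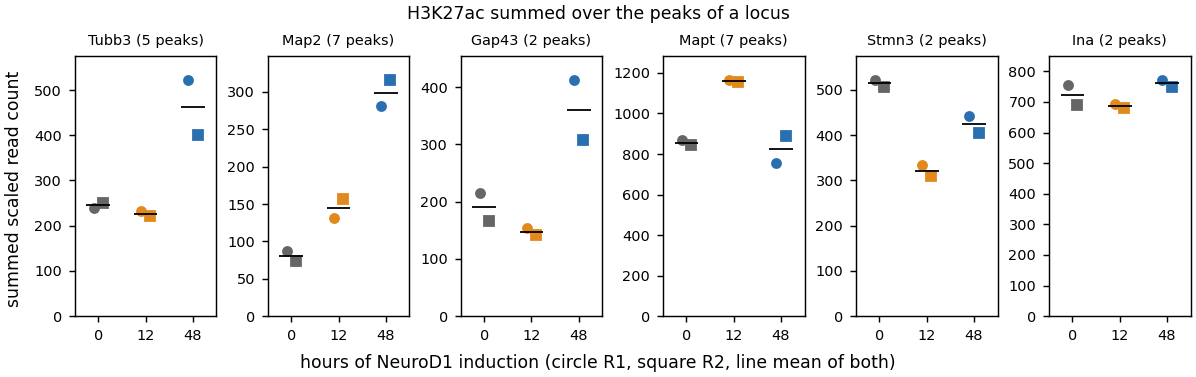
Summed scaled H3K27ac read count (y axis, from 0) over the peaks of 6 genes with at least 2 peaks, by hours of induction, for each library and with the mean of R1 and R2 as a line. Map2 climbs at each time point, Tubb3 and Gap43 are highest at 48 h only, and Mapt is highest at 12 h, with 1166.6 and 1155.4.

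The other cytoskeleton genes were read from 5 lists of 50 genes, of which 47 had a peak. At 48 h, 11 of them were higher and 2 lower in summed counts, against 6.45% and 5.35% of all genes. At 12 h 1 was higher and 10 were lower, against 7.13% and 30.2% of all genes, and the latter share depended on the scaling as given above. The median log2 fold change of the 47 was -0.22 at 12 h and 0.07 at 48 h. Growth cone and axonal actin regulators had the most calls, with 5 of 12 genes higher and none lower at 48 h (median 0.58). The largest gain among them was at Crmp1, a collapsin response mediator, with sums of 469.0 and 439.4 at 0 h, 1067.9 and 1141.6 after 12 h, and 1107.0 and 1058.5 after 48 h (log2 fold change at 48 h of 1.25 ± 0.10, adjusted p = 0.000096, edgeR). It had reached this level by 12 h, when it was the 1 listed gene that was higher.

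Of 15 other tubulins and microtubule proteins, 12 had a peak, and Dclk1, Map6 and Stmn4 did not. At 48 h, 2 were higher and 1 lower (median -0.04). Map1b, a microtubule-associated protein of growing axons, had sums of 1154.5 and 928.7, 1188.0 and 1115.8, and 2028.5 and 1717.2 (log2 fold change at 48 h of 0.84 ± 0.12, adjusted p = 0.0017, edgeR). Camsap3, which binds microtubule minus ends, had 1562.9 and 1721.6, 1455.0 and 1411.1, and 1008.1 and 1141.9 (-0.61 ± 0.10, adjusted p = 0.0033). Of 9 neuronal kinesins and members of the spectrin and ankyrin scaffold, 2 were higher and 1 lower at 48 h (median 0.03). Ank2, an ankyrin, changed by 1.26 on the log2 scale (adjusted p = 0.00087, edgeR), and Sptbn4, a spectrin, had -0.40 (adjusted p = 0.016).

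The neurofilament heavy chain gene Nefh and the peripherin gene Prph did not pass in any comparison (median -0.06 at 48 h), as at Nefl and Nefm. Of 12 cytoskeleton genes of stem, progenitor and other cells, 2 were higher at 48 h and none lower (median 0.10). Vim, the intermediate filament of progenitors and many other cells, had the larger gain, with sums of 197.0 and 142.2, 182.3 and 172.0, and 365.3 and 262.3 (0.88 ± 0.21, adjusted p = 0.021, edgeR).

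**Figure D5:**
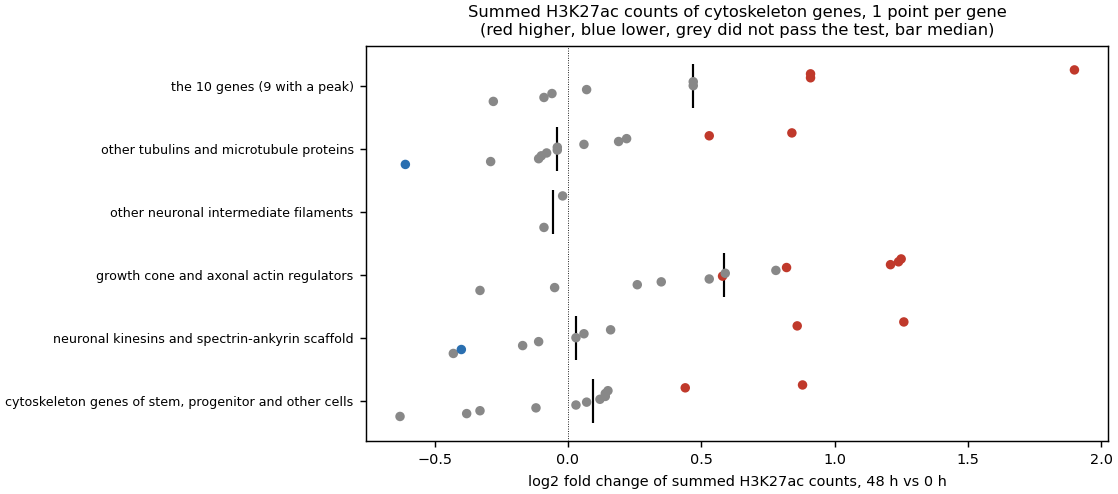
Log2 fold change of summed H3K27ac counts at 48 h relative to 0 h (x axis) for each gene with a peak, in the set of 10 and in 5 lists of other cytoskeleton genes, with the median of each group as a bar. The medians are 0.47 for the set, 0.58 for growth cone and axonal actin regulators, and between -0.06 and 0.10 for the other 4 lists. The median of the set is the value of the weak peak that Nefl and Nefm share, drawn once for each gene.

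E-boxes were counted in the central 500 bp of each peak. CAGATG, on either strand, was present in 5 of the 27 peaks (18.5%), against 29.3% of all merged peaks, and CAGCTG in 11 of the 27 (40.7%), against 25.2% of all merged peaks. Of the 8 peaks gained at 48 h, none held CAGATG and 3 held CAGCTG, and of the 19 others 5 held CAGATG and 8 held CAGCTG. In the first gained Map2 peak both CAGCTG matches shown above lie outside these central 500 bp. Likewise, the gained Tubb3 promoter peak holds 1 CAGATG over its full width, outside its central 500 bp. A match describes these letters only, and occupancy was not measured in these files. GC content differed between the peaks that moved at 12 h, from 37.7% to 49.1% in the 4 gained and from 46.9% to 66.5% in the 4 lost. With the GC offset 5 gained and 3 lost at 12 h, and 9 gained at 48 h.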

How the data were processed

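H3K27ac ChIP-seq of A2Lox cells was analysed at 0, 12 and 48 h of NeuroD1 induction, with 2 libraries per time point grouped by the time point and treatment tags of their labels. The treatment text in the labels names only 48 h of doxycycline, for every sample. Reads had been mapped by the authors with Bowtie2 (mm10) and sorted with SAMtools 0.1.19. They called peaks using MACS2 and an Input control, pooled these into a single peak set and deposited the raw read counts that QuasR gave for it. The Input library was not used here. Peaks were assigned with GENCODE M21, and E-boxes, GC content and sequences were read from the RefSeq copy of GRCm38.

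Time points were compared with two-sided quasi-likelihood tests in edgeR 4.0.16 (R 4.3.3), in 1 model of all 6 libraries with library totals as offset, over all 66841 peaks and separately over sums for 16175 genes. No count filter was applied, and the threshold was an adjusted p of 0.05. The model had 3 residual degrees of freedom and a biological coefficient of variation of 14.85% for peaks and 10.55% for genes. Alternatives were TMM factors, DESeq2 1.42.0, a filter of 10 counts in 2 libraries, a replicate block, the 4 compared libraries alone, peaks assigned by their centre, an offset from a lowess curve (span 0.3) on GC content with and without the block, and leaving out each library.

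Each gene was described by its strongest promoter peak, its strongest peak, the peaks with the largest called gain and loss, and its sum. Of each list, the genes with the largest called gain and loss at 48 h were named. Peaks of Map2, Mapt and Tubb3 beyond this rule, and the marker genes given with values, were picked with their values in view. The genes and lists were chosen with earlier results of these data known.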

Additional observations from a re-analysis of the deposited data

Results flagged for a closer look

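At 12 of the 27 peaks, the changes from 0 h to 12 h and from 0 h to 48 h differed, by the test of 48 h against 12 h in edgeR (adjusted p below 0.05). Over all merged peaks, 10.7% gained and 8.43% lost in this test. Several of the 12 lie at the same gene. The log2 difference, 48 h minus 12 h, was 1.82 at the upstream peak of Tubb3 and 1.29 at its promoter. At Map2 it was 1.13 and 0.93 at the neighbouring intronic peaks, 2.37 at the start of the shorter transcripts and 2.3 at the intronic peak 232442 bp from the gene start. At Gap43 it was 2.49 at the promoter and 0.69 in the intron. It was 1.19 at the Stmn3 promoter and 0.57 at the Ina promoter, both of which had lost H3K27ac at 12 h. At Mapt it was -0.84 and -0.82 at the neighbouring exonic peaks. Of these differences, those at the promoters of Tubb3 and Gap43 passed the test under every alternative tried.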

How the results depend on the processing

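Counts of calls among the 27 peaks and 9 genes were recomputed under each alternative. With R1 and R2 as a replicate block, all counts were as given above, for example 8 peaks gained and 3 genes higher at 48 h. Same-numbered libraries shared no deviation from their group means (r of -0.036, -0.05 and 0.078 across peaks), so the numbers were not taken as pairs. Apart from the fits that leave out a single library, only counts that differed by more than 1.5-fold, or became or ceased to be 0, are listed next. Smaller differences also occurred, such as 7 and not 10 peaks gained from 12 h to 48 h with the 4 compared libraries alone. With DESeq2, 2 peaks were lost at 12 h, 0 were lost at 48 h, and 6 gained and 1 lost from 12 h to 48 h, while 0 genes were lower at 12 h. Over all merged peaks DESeq2 also called fewer, with 1110 lost at 12 h and 976 at 48 h. With the 4 compared libraries alone, 1 peak was lost from 12 h to 48 h and 3 genes were lower at 12 h. With the GC offset, with or without the block, 1 gene was lower at 48 h.

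Leaving out 1 library at a time gave 2 to 6 peaks gained and 0 to 4 lost at 12 h, 5 to 9 gained and 0 to 2 lost at 48 h, and 3 to 11 gained and 0 to 3 lost from 12 h to 48 h. It gave 0 to 2 genes higher and 0 to 3 lower at 12 h, 1 to 3 higher and 0 to 1 lower at 48 h, and 0 to 6 higher and 0 to 1 lower from 12 h to 48 h.

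No named value that passed the test under either of the settings compared changed sign. Values that passed in neither did so as follows. At 12 h the Tubb3 promoter became 0.03 (TMM factors), 0.01 (DESeq2) and 0.22 (GC offset), the Tubb3 sum 0.16, 0.17 and 0.23, the Ina sum 0.20, 0.21 and 0.21, and the Mapt promoter 0.21 (GC offset). From 12 h to 48 h the Ina sum became -0.13, -0.15 and -0.15, and the intronic Ina peak 0.07 (GC offset). At 48 h the Ina promoter became 0.12 (GC offset), and the Map2 start -0.02 (replicate block). Each of these values with the GC offset was the same to 2 decimals when the block was added. Without 1 library, values at 48 h ranged from -0.34 to 0.11 at the Ina promoter, -0.69 to 0.55 at the Map2 start, -0.02 to 0.38 at the Mapt peak that gained at 12 h, -0.18 to 0.01 at Stmn2, -1.07 to 0.19 at the Stmn3 promoter and -0.18 to 0.06 for the Mapt sum. From 12 h to 48 h they ranged from -0.21 to 0.03 at the intronic Ina peak and -0.09 to 1.37 at the Map2 start. The cause of these changes was not tested. With 2 libraries per time point and under 40 reads at the weak peaks of Map2, Nefl and Nefm, small changes there were not detectable.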
